A study of Mus musculus with 9 samples.

Results

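Regulators of G-protein signalling (RGS proteins) and dual-specificity phosphatases (DUSP proteins) are the brakes of the pathways through which angiotensin II (AngII) acts on the heart. RGS proteins speed up the hydrolysis of GTP by G-protein alpha subunits and so shorten the signal of a receptor, and the MAP kinase phosphatases among the DUSP proteins remove phosphate from ERK, p38 and JNK kinases. Several of these genes are themselves induced by the signals they limit, which closes a negative feedback loop. The 10 such genes described here were chosen by their gene symbols: Rgs2, Rgs3, Rgs4, Rgs5, Rgs6, Dusp1, Dusp4, Dusp5, Dusp6 and Gem, out of 16951 genes in the deposited table. Gem encodes a small GTPase of the RGK family that inhibits voltage-gated calcium channels. All 10 were found, and 9 of them reached the expression filter for testing (1 FPKM, fragments per kilobase of transcript, scaled to library size, in at least 3 libraries), which 11902 genes passed. Dusp4 did not.

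Heart messenger RNA of C57BL/6 mice was sequenced in 3 groups of 3 libraries: mice given saline, mice given AngII, a pressor peptide that raises cardiac load, and mice given AngII together with prostaglandin E1 (PGE1), a prostanoid. By its title, the study asked about PGE1 and cardiac hypertrophy. Age, sex, dose, route and duration are left unstated in the labels, and no label states that each library is a separate animal. The p-values therefore reflect library-to-library spread, part of which may be technical. Libraries are numbered here in column order within a group. The deposited columns carry numbers of their own that differ from those of the labels: 1, 2 and 4 for saline, 1, 2 and 3 for AngII, and 2, 3 and 4 for AngII+PGE1. What these numbers stand for is not stated.

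On the first principal component of all tested genes, which carried 62.3% of the variance, saline 2 and AngII+PGE1 1 lay on the side of the 3 AngII libraries. Both carry the column number 2, as does AngII 2, and results that rest on them are given with and without them. They were singled out on these same values, so calls made without them describe the data and do not test it. Summed cardiomyocyte markers ranged from 48139 to 73211 FPKM over the 9 libraries, in keeping with heart as the labelled tissue, while the 4 of 5 adipocyte markers in the table summed to at most 0.62 FPKM. Summed endothelial markers lay between 356 and 399 FPKM in saline, 181 and 304 with AngII and 212 and 291 with AngII+PGE1. Summed pericyte markers lay between 140 and 153, 69.0 and 114, and 102 and 114 FPKM in the same order. Summed fibroblast markers lay between 458 and 518, 500 and 1309, and 387 and 454 FPKM. The highest of these sums, in AngII 2, held Col1a1 at 375.52 and Col1a2 at 301.68 FPKM. Of the 7 fibroblast markers, 4 had a negative log2 difference for AngII vs saline and 3 a positive one. Nppa alone, an atrial gene that is also known to rise in ventricles under load, lay between 84.78 and 632, 1391 and 10903, and 209 and 4177 FPKM. The other 4 atrial markers summed to between 7.07 and 12.25, 11.53 and 16.84, and 6.66 and 10.05 FPKM, with overlap between saline and AngII. The part of any of these shifts in the results was not tested. In whole heart, fewer cells of a type and less RNA per cell cannot be told apart.

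The control regions of the 3 genes with the widest group differences are shown because cAMP-responsive and serum-responsive elements are the textbook routes by which feedback genes are induced. Windows of 250 bases before the transcription start were available for 8 of the 10 genes, from RefSeq on build GRCm38.p6, which is not the mm9 build named by the submitters. Capitals mark matches on either strand to the cAMP response element TGACGTCA, to its arms TGACG or CGTCA (the full element contains both), to the AP-1 site TGANTCA and to the CArG box bound by serum response factor.
Rgs2 (chr1:144004150-144004399, minus strand): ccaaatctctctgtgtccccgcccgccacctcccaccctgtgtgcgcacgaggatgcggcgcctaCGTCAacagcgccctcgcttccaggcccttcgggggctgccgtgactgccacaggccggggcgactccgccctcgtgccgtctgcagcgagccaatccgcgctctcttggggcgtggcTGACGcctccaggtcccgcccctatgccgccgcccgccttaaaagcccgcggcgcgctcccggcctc
Dusp1 (chr17:26508473-26508722, minus strand): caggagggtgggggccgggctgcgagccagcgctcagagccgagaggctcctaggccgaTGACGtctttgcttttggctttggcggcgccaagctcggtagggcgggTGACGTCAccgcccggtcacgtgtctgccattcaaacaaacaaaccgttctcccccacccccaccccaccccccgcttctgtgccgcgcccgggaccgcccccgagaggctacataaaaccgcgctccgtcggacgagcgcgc
Dusp5 (chr19:53528895-53529144, plus strand): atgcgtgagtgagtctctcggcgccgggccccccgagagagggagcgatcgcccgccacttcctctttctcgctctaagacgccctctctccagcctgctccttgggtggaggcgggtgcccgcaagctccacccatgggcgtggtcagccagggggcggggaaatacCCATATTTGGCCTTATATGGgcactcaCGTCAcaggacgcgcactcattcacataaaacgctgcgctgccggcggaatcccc

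The Dusp1 window held 1 full cAMP response element, whose first base lay 143 bases before the start, and a further single arm 191 bases before it. Among all 32851 RefSeq windows, 1.55% held the full element, and Dusp1 was the only one with it among the 8 feedback genes that had a window. Rgs2 held 2 single arms, Dusp5 held 1 and Rgs4 held 2, and 17.8% of all windows held at least 1. The Dusp5 window held 2 adjoining CArG boxes, 82 and 72 bases before the start, a motif found in 1.47% of all windows and in no other window of these genes. No window of the 8 genes held the AP-1 letters, which 6.75% of all windows did. The letters TATAAA or TTTATA were in the Rgs4 window and in both Rgs3 windows, and in 12.4% of all windows. These are matches of letters and not shown binding sites.

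In saline hearts the levels of the 10 genes spanned a wide range on the FPKM scale, which is per transcript length. Rgs5 was highest, at 98.6 ± 23.4 FPKM (SD, n = 3), followed by Dusp1 at 76.1 ± 21.0, and the libraries of these neighbours overlapped. Rgs3, at 18.9 ± 3.08, and Rgs2, at 18.6 ± 5.72, also overlapped. Dusp6 followed at 11.4 ± 0.556 and Rgs4 at 7.84 ± 1.63, without overlap between them or with Rgs2. Dusp5 (4.84 ± 3.07), Rgs6 (4.43 ± 1.18) and Gem (3.19 ± 0.972) overlapped with their neighbours in the order, and Dusp4 was lowest at 0.57 ± 0.246 FPKM, below every library of Gem. With AngII, Rgs5 was at 97.4 ± 16.6 FPKM and stood above Dusp1, at 28.3 ± 10.98, without overlap.

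**Figure D1:**
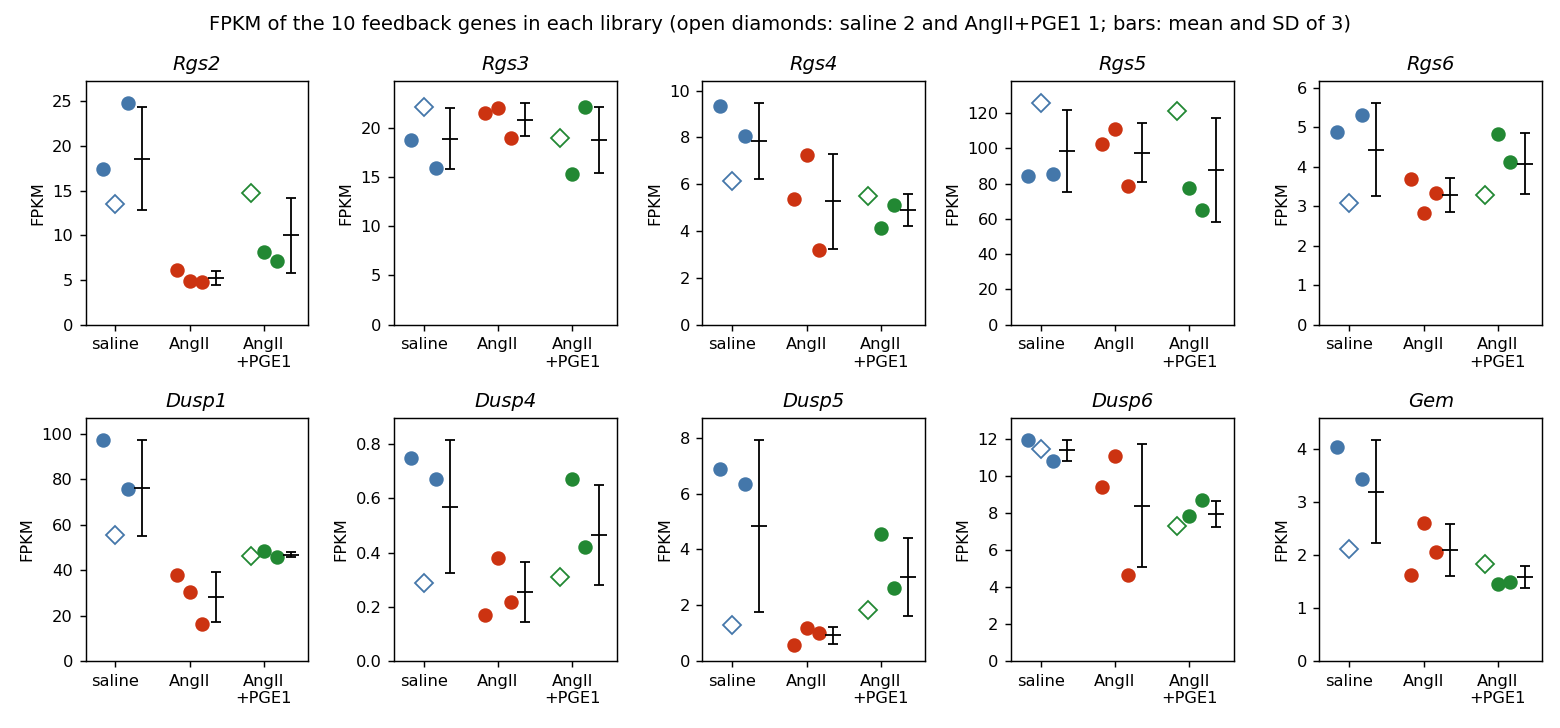
FPKM of each of the 10 feedback genes (vertical axis from 0, own scale per gene) in the 9 libraries by group; points are libraries, open diamonds are saline 2 and AngII+PGE1 1, and bars give the mean and SD of 3 libraries. Rgs2 and Dusp1 lie lower in all 3 AngII libraries than in any saline library, whereas Rgs3 and Rgs5 overlap across all groups.

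The first question was the effect of the peptide alone, AngII against saline. Rgs2 and Dusp1 fell, and these were the only feedback genes past the threshold (limma, Benjamini-Hochberg adjusted p under 0.05): 2 of 9 tested were lower, against 1.8% of all tested genes, and none was higher, against 1.31%. Of the 9, 8 had a negative difference, with a median of -0.47 on the log2(FPKM + 1) scale against 0.0011 over all tested genes, of which 49.9% were negative. At an unadjusted p under 0.05 there were 3 of 9, against 35% of all tested genes. The list was chosen with these results known, so the counts describe it and do not test it.

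Rgs2, the RGS protein most selective for the Gq class of alpha subunits that the AngII receptor uses, was at 17.46, 13.52 and 24.79 FPKM in saline and at 6.14, 4.84 and 4.77 FPKM with AngII. The groups did not overlap, and even the lowest saline library stood far above the highest AngII library. The mean was 3.54-fold lower (log2 difference -1.61, SE 0.28, limma adjusted p = 0.0392). Dusp1, a nuclear phosphatase of p38, JNK and ERK, was at 97.34, 55.36 and 75.56 FPKM in saline and at 37.96, 30.49 and 16.34 FPKM with AngII. Again no AngII library reached the lowest saline library. The mean was 2.69-fold lower (log2 difference -1.44, SE 0.29, limma adjusted p = 0.0421).

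Neither gene passed without saline 1, saline 3, AngII 1, AngII 2, AngII 3, AngII+PGE1 2 or AngII+PGE1 3, with limma adjusted p up to 0.204. No gene of the whole table passed without saline 1, saline 3, AngII 2 or AngII 3, and 65, 15 and 31 genes did in the other settings. Over all 9 such settings the difference lay between -1.81 and -1.40 for Rgs2 and between -1.69 and -1.10 for Dusp1. Both passed without saline 2 (-1.81 and -1.65, limma adjusted p = 0.0042 and 0.00581) or without AngII+PGE1 1, where 6.06% of all tested genes were lower. Of 4 annotated genes that overlap Dusp1, only Ergic1, on the opposite strand, was in the deposited table. Reads of that overlap cannot be told apart if counting ignored strand, about which the sources used here are silent. AC122252.4 and AC122252.1 overlap Dusp1 on the same strand. Rgs3, Rgs6 and Dusp5 also overlap annotated genes, none of them in the deposited table. Ergic1 was at 27.86, 13.71 and 23.83 FPKM in saline and at 10.05, 15.78 and 10.84 FPKM with AngII, with overlap. It was at 13.2, 20.67 and 22.5 FPKM with AngII+PGE1. Its part in the Dusp1 values was not tested.

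Dusp5, a nuclear phosphatase selective for ERK, had the largest ratio of means among the 10 genes. It was at 6.89, 1.31 and 6.33 FPKM in saline and at 0.59, 1.19 and 1 FPKM with AngII. The Dusp5 values amounted to an estimated 21.0 to 225 reads per library, so counting error is sizeable in the lowest libraries. Saline 2 lay just above the AngII libraries and far below the other saline libraries. The mean was 5.23-fold lower with AngII, but the difference missed the threshold (log2 difference -1.42, SE 0.43, limma adjusted p = 0.0726). Without saline 2 it passed (-1.99, limma adjusted p = 0.00332). The pseudocount of 1 FPKM compresses a gene at this level, and with 0.1 the difference was -2.01 and did not pass either (limma adjusted p = 0.073). The authors' deposited table gives a log2 ratio of -2.43 for Dusp5, -1.86 for Rgs2 and -1.48 for Dusp1.

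Dusp4, another nuclear MAP kinase phosphatase, was at 0.75, 0.29 and 0.67 FPKM in saline and at 0.17, 0.38 and 0.22 FPKM with AngII. The groups overlapped through saline 2, the lowest saline library. Its values amounted to an estimated 6.71 to 26.3 reads per library, so counting error alone is large. It was under the filter, and in a fit without a filter it did not pass (-0.31, SE 0.13, limma adjusted p = 0.159). Dusp6, the cytoplasmic phosphatase of ERK, was at 11.93, 11.44 and 10.82 FPKM in saline and at 9.43, 11.08 and 4.68 FPKM with AngII. The groups overlapped and AngII 3 stood lowest (log2 difference -0.47, SE 0.25, limma adjusted p = 0.195). Without AngII 3 the Dusp6 difference was -0.14.

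Rgs4, which acts on Gq and Gi subunits, was at 9.35, 6.12 and 8.05 FPKM in saline and at 5.35, 7.26 and 3.21 FPKM with AngII (log2 difference -0.53, SE 0.25, limma adjusted p = 0.152). The groups overlapped, with AngII 2 within the saline range. Gem was at 4.02, 2.12 and 3.43 FPKM in saline and at 1.62, 2.61 and 2.05 FPKM with AngII (log2 difference -0.42, SE 0.20, limma adjusted p = 0.165). Rgs6, an RGS protein that limits the vagal slowing of the heartbeat, was at 4.89, 3.09 and 5.31 FPKM in saline and at 3.70, 2.83 and 3.34 FPKM with AngII (log2 difference -0.32, SE 0.20, limma adjusted p = 0.265). For both Gem and Rgs6 the overlap with AngII came from saline 2.

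Rgs3 and Rgs5 differed little between the groups. Rgs5, an RGS gene that marks pericytes and vascular smooth muscle, was at 84.52, 125.57 and 85.68 FPKM in saline and at 102.65, 110.86 and 78.81 FPKM with AngII (log2 difference -0.0067, SE 0.25, limma adjusted p = 0.987; the sign turned without saline 2, alone or with AngII+PGE1 1, and without AngII 3). Saline 2 was here the highest of the 9 libraries. Rgs3, a further inhibitor of Gq and Gi signalling, ranged from 15.92 to 22.07 FPKM in saline and from 18.92 to 22.03 FPKM with AngII (log2 difference 0.14, SE 0.18, limma adjusted p = 0.574). The authors' deposited log2 ratio of Rgs3 was -0.0085, of opposite sign. Of 7 pericyte markers, 5 had a negative difference for AngII vs saline, 3 of them without overlap, and the channel subunit gene Abcc9 passed (-1.25, limma adjusted p = 0.0403). Of 6 smooth muscle markers, 5 had a positive difference, and Cnn1, a calponin gene, was called higher (1.85, limma adjusted p = 0.0375). Leaving out 1 library at a time, Abcc9 passed in 2 of 9 fits and Cnn1 in 3 of 9. All 7 endothelial markers had a negative difference for AngII vs saline, 3 without overlap and none past the threshold. Among all tested genes 49.9% had a negative difference, 15.8% were lower without overlap and 17.9% were higher without overlap. The shares called were 1.8% lower and 1.31% higher. The part of these markers in the Dusp1 and Rgs2 results was not tested.

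**Figure D2:**
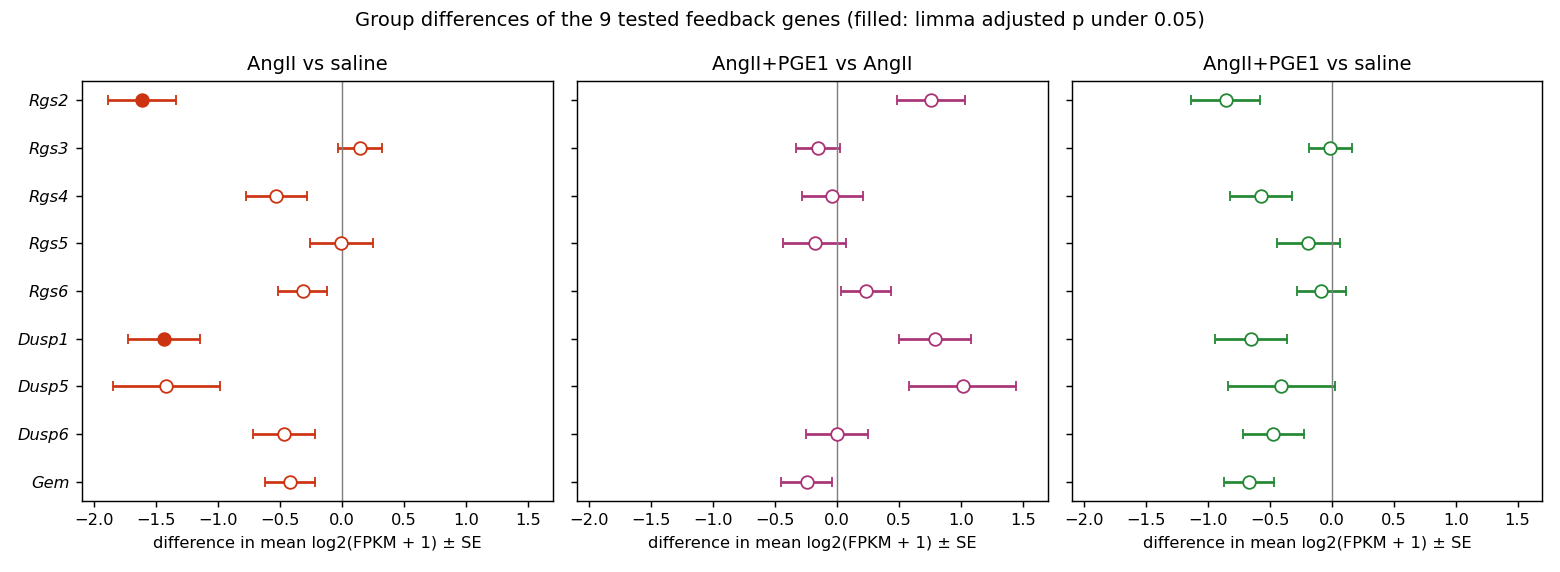
Differences in mean log2(FPKM + 1) between groups (horizontal axis) for the 9 tested feedback genes in the 3 comparisons; bars are the standard error of the limma fit and filled points are past an adjusted p of 0.05. The filled points are Rgs2 and Dusp1 for AngII vs saline, at -1.61 and -1.44.

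When saline 2 and AngII+PGE1 1 were both left out, 5 of the 9 tested genes were lower with AngII: Rgs2, Dusp1, Dusp5, Gem and Rgs6. The share of all tested genes called lower was then 24.9%. The same 5 genes passed without saline 2 alone, where 20.2% of all tested genes were lower. Saline 2 and AngII+PGE1 1 were singled out on these same values, so the added calls are a description and not a test. With all 9 libraries, the groups did not overlap for 3 of the 9 genes, Rgs2, Dusp1 and Dusp5, all lower, against 15.8% of all tested genes, and none was higher, against 17.9%.

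The next question was the effect of adding PGE1, AngII+PGE1 against AngII. None of the 9 tested feedback genes passed with limma, against 0.403% of all tested genes, and none did with its robust form. Rgs2, Dusp1 and Dusp5 were higher in all 3 AngII+PGE1 libraries than in any AngII library, 3 of 9 against 16.3% of all tested genes, and none was lower in all, against 19.7%. These 3 also had an unadjusted p under 0.05, as did 33.6% of all tested genes. The comparison shares the AngII libraries with that of AngII and saline, so opposite signs are not independent.

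Rgs2 was at 14.76, 8.14 and 7.09 FPKM with AngII+PGE1. AngII+PGE1 1 lay within the saline range and the other two lay between the AngII and saline libraries. The mean was 9.997 ± 4.16 FPKM (SD, n = 3), 1.90-fold the AngII mean (log2 difference 0.76, SE 0.28, limma adjusted p = 0.102). Without AngII+PGE1 1 and saline 2 the Rgs2 difference was 0.47 (limma adjusted p = 0.0616). Dusp1 was at 46.44, 48.31 and 46.06 FPKM, the tightest group of the gene, with all 3 libraries between the highest AngII and the lowest saline library. The mean of 46.9 ± 1.2 FPKM was 1.66-fold the AngII mean (log2 difference 0.79, SE 0.29, limma adjusted p = 0.104).

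Dusp5 was at 1.84, 4.54 and 2.64 FPKM, with AngII+PGE1 1 lowest, and its mean was 3.24-fold the AngII mean (log2 difference 1.01, SE 0.43, limma adjusted p = 0.134). Without saline 2 and AngII+PGE1 1 it was the 1 feedback gene that passed (1.23, limma adjusted p = 0.00253), where 18.1% of all tested genes were called higher. It passed without saline 2 alone as well (1.01, limma adjusted p = 0.0257), where 9.2% of all tested genes were higher. Without AngII+PGE1 1 alone Dusp5 did not pass, although 26.9% of all tested genes were then called in either direction. Dusp4 was at 0.31, 0.67 and 0.42 FPKM and overlapped with both other groups.

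The remaining genes overlapped with the AngII range. Rgs4 was at 5.48, 4.14 and 5.11 FPKM (log2 difference from AngII -0.04, SE 0.25) and Dusp6 at 7.31, 7.86 and 8.71 FPKM (-0.00049, SE 0.25), and both signs turned with quantile normalization, with median-ratio scaling and without some single libraries. Gem was at 1.83, 1.45 and 1.5 FPKM (-0.24, SE 0.20), so that 2 of its AngII+PGE1 libraries were below every AngII library. Rgs6 was at 3.28, 4.82 and 4.12 FPKM (0.24, SE 0.20). Rgs3 ranged from 15.33 to 22.05 FPKM (-0.15, SE 0.18) and Rgs5 from 65.14 to 121.25 FPKM (-0.18, SE 0.25), and AngII+PGE1 1 was the highest of its group for Rgs5. The limma adjusted p of these 6 genes lay between 0.4 and 0.999. Taken as AngII+PGE1 over AngII, the authors' deposited log2 ratios of Rgs3, Rgs4 and Dusp6 were 0.093, 0.051 and 0.087, of opposite sign.

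The comparison of AngII+PGE1 with saline asked what remained different with both agents. All 9 tested feedback genes had a negative difference, as did 66% of all tested genes, with a median of -0.47 against -0.07. The authors' deposited log2 ratios were positive for Rgs3 (0.092) and Rgs6 (0.0086) and negative for the other tested feedback genes. The sign of Rgs3, Rgs5 or Rgs6 turned in some alternatives. None passed with limma or its robust form, against 0.0168% of all tested genes, and 4 of 9 had an unadjusted p under 0.05, against 4.23%. Rgs4, Dusp1, Dusp6 and Gem, 4 of 9, were lower in every AngII+PGE1 library than in any saline library, against 7.89% of all tested genes, and none was higher, against 2.3%. In the same comparison 5 of 7 fibroblast, 4 of 7 endothelial and 3 of 7 pericyte markers were lower without overlap, and the part of these markers was not tested.

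Gem had the smallest unadjusted p of the 9, at 0.00822. Its mean was 1.59 ± 0.206 against 3.19 ± 0.972 FPKM (SD, n = 3 each; log2 difference -0.67, SE 0.20, limma adjusted p = 0.988). Dusp6 was at 7.96 ± 0.705 against 11.4 ± 0.556 FPKM (-0.47, SE 0.25) and Rgs4 at 4.91 ± 0.692 against 7.84 ± 1.63 FPKM (-0.57, SE 0.25), each with a limma adjusted p of 0.9999. For these 3 genes the AngII+PGE1 mean was also below the AngII mean. The log2 differences of Rgs2, Dusp1 and Dusp5 from saline were -0.86, -0.65 and -0.41, with SE of 0.28, 0.29 and 0.43 (limma adjusted p = 0.9999 each). Without saline 2 and AngII+PGE1 1 the difference of Rgs2 was -1.34 (limma adjusted p = 0.055) and that of Dusp5 was -0.76. Leaving out 1 library, Dusp5 lay between -0.98 without saline 2 and -0.09 without saline 1, with -0.15 without saline 3, -0.19 without AngII+PGE1 1 and -0.67 without AngII+PGE1 2.

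**Figure D3:**
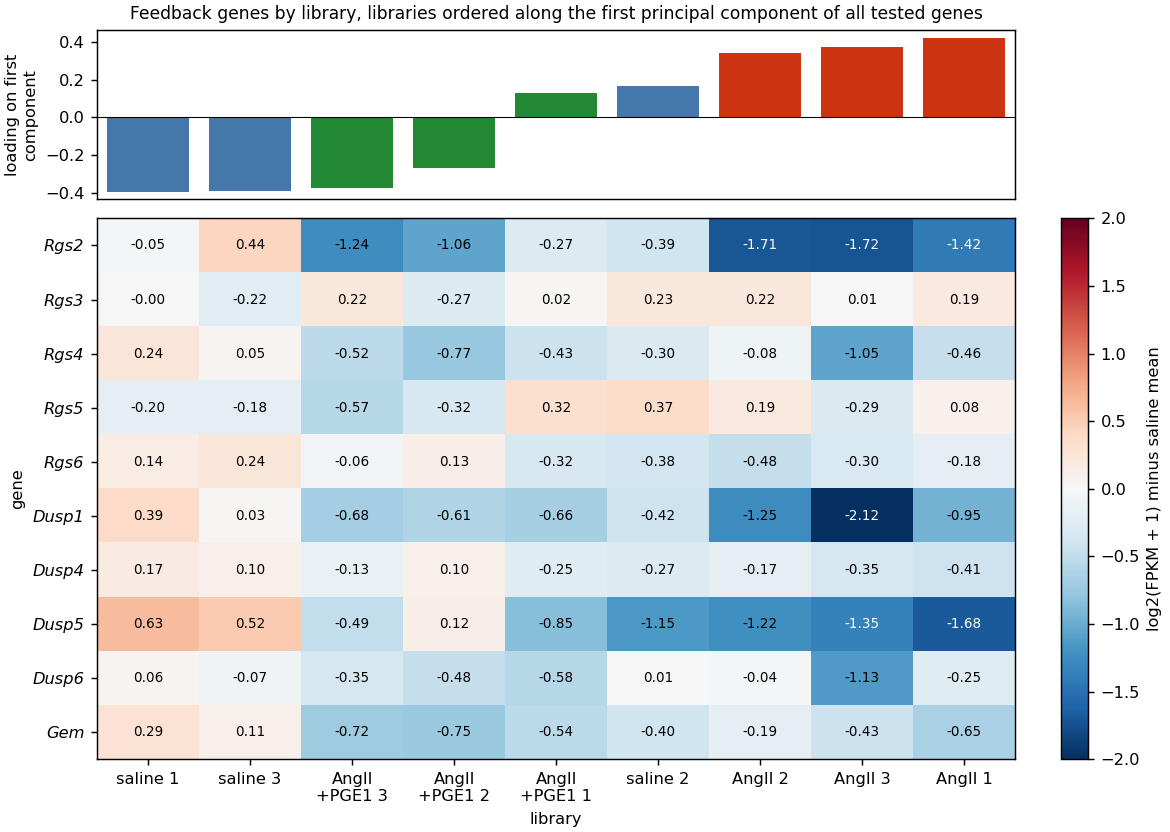
Bars give each library's loading on the first principal component of all tested genes, in component units, and the grid gives log2(FPKM + 1) of each feedback gene minus its saline mean, with libraries ordered by the component. Dusp5 is at 0.63 in saline 1, at -1.68 in AngII 1 and at -1.15 in saline 2, while Rgs2 is at -0.39 in saline 2 and -0.27 in AngII+PGE1 1.

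The genes differed in how they placed the libraries that stood apart. In saline 2, Dusp5 was at -1.15 relative to the saline mean on the log2(FPKM + 1) scale, against -1.68 to -1.22 in the AngII libraries. Rgs2 was at -0.39 in saline 2 against -1.72 to -1.42 with AngII, and Dusp1 at -0.42 against -2.12 to -0.95. The gap from saline 2 to the nearest AngII library was thus wider for Rgs2 and Dusp1 than for Dusp5. Across the 9 libraries, as a description, the 4 highest values of Pearson's r of log2(FPKM + 1) were 0.97 between Dusp5 and Dusp4, 0.88 between Rgs4 and Dusp6, 0.87 between Rgs6 and Dusp5 and 0.84 between Rgs2 and Dusp1. The lowest was -0.72, between Rgs3 and Rgs6. The libraries share groups and the first component, and no p is given.

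The genes most like Rgs2 over the 9 libraries, among 7702 others at a mean of 5 FPKM or more, were Ano10 (Pearson's r 0.98), Gcat (0.95), Mut (0.95), Magi3 (0.95) and Usp38 (0.94). Ano10 was at 26.88, 19.91 and 26.45 FPKM in saline, 9.44, 8.93 and 7.85 FPKM with AngII and 19.22, 13.36 and 12.75 FPKM with AngII+PGE1. It shared with Rgs2 the high AngII+PGE1 1 library. Those most like Dusp1 were Steap4 (0.97), Kdr (0.96), Aldh3a2 (0.96), Ctc1 (0.96) and Tjp1 (0.95). Kdr, the endothelial receptor of vascular endothelial growth factor and 1 of the endothelial markers above, was at 53.35, 30.51 and 49.58 FPKM in saline, 22.78, 17.99 and 8.36 FPKM with AngII and 20.00, 20.56 and 30.48 FPKM with AngII+PGE1. As with Dusp1, AngII 3 was the lowest library.

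The rest of the RGS family gave no call. Of 18 other RGS genes and their anchor genes 16 were in the table and 4 were tested, none called in any comparison by limma. At an unadjusted p under 0.05 there were 1, 3 and 0 for AngII vs saline, AngII+PGE1 vs AngII and AngII+PGE1 vs saline. The shares of all tested genes under that p were 35%, 33.6% and 4.23%. For AngII vs saline the median log2 difference of the 4 was 0.36, of opposite sign to that of the 9 feedback genes. Rgs10, an RGS gene known from immune cells, was at 8.83, 12.56 and 10.67 FPKM in saline and at 12.70, 26.96 and 18.46 FPKM with AngII (0.75, limma adjusted p = 0.0893). Rgs19 was at 4.73, 6.84 and 5.59 FPKM in saline and at 7.88, 9.21 and 7.17 FPKM with AngII (0.44, limma adjusted p = 0.157). Rgs1, Rgs9, Rgs13 and Rgs18 stayed below 1 FPKM in every library.

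None of the 4 other tested MAP kinase phosphatase genes, of 6, was called in any comparison by limma. At an unadjusted p under 0.05 there were 1, 1 and 0 in the same order, against 35%, 33.6% and 4.23% of all tested genes. Dusp10, a phosphatase of p38 and JNK, was at 4.83, 2.94 and 4.08 FPKM in saline, 2.82, 2.85 and 1.92 FPKM with AngII and 4.43, 4.05 and 3.38 FPKM with AngII+PGE1. The groups did not overlap in either AngII comparison (-0.48 and 0.49 on the log2 scale, limma adjusted p = 0.112 and 0.113). Dusp7 and Dusp8 were expressed at 23.21 to 36.93 and 8 to 24.85 FPKM with overlapping groups. The 9 tested atypical DUSP genes of 14 gave no limma call either. There were 2, 3 and 0 at an unadjusted p under 0.05, against the same shares of all tested genes. Their median for AngII vs saline was -0.01.

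Rrad, the RGK family member of heart muscle, was far more abundant than Gem. It lay between 98.61 and 188 FPKM, with overlapping groups in all 3 comparisons (log2 difference 0.20 for AngII vs saline, limma adjusted p = 0.553). Rem1 lay between 2.63 and 6.05 FPKM, and Rem2 reached at most 0.04 FPKM. Neither Rrad nor Rem1 had an unadjusted p under 0.05 in any comparison.

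Of 7 tested genes for Sprouty, Spred and related inhibitors of receptor tyrosine kinase signalling, 1 was called. Errfi1, an inhibitor of the EGF receptor, fell with AngII, where 1.8% of all tested genes were called lower. It was at 24.16, 8.39 and 19.07 FPKM in saline and at 5.6, 6.63 and 5.11 FPKM with AngII (log2 difference -1.32, SE 0.31, limma adjusted p = 0.0496). Leaving out 1 library, Errfi1 passed only without saline 2 or AngII+PGE1 1. The list median was -0.41 and 5 of the 7 did not overlap between groups with AngII lower, against 15.8% of all tested genes. The other 2 had a positive difference, and 1 of them, Spred3, was higher without overlap, against 17.9% (0.96, limma adjusted p = 0.0732). Spry4 was at 7.98, 3.99 and 6.13 FPKM in saline and at 3.28, 3.60 and 1.11 FPKM with AngII (-0.98, SE 0.32, limma adjusted p = 0.0789). Its AngII+PGE1 values, 3.05, 4.80 and 3.95 FPKM, overlapped with both groups.

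Upstream of the feedback genes, none of 16 tested G-protein and phospholipase C beta genes and none of 24 tested MAP kinase cascade genes was called by limma in any comparison. At an unadjusted p under 0.05 there were 6, 7 and 1 of the former and 9, 9 and 1 of the latter for AngII vs saline, AngII+PGE1 vs AngII and AngII+PGE1 vs saline, where the shares of all tested genes were 35%, 33.6% and 4.23%. For AngII vs saline both counts are near that share. Gnaq, the alpha subunit on which Rgs2 acts, was at 4.84, 7.85 and 4.93 FPKM in saline, 11.15, 12.23 and 10.98 FPKM with AngII and 7.98, 4.59 and 3.51 FPKM with AngII+PGE1. The AngII libraries did not overlap with either group (0.88 and -1.03 on the log2 scale, limma adjusted p = 0.0692 and 0.06). Mapk14, which encodes the p38 alpha kinase that Dusp1 inactivates, was at 35.60, 17.66 and 33.76 FPKM in saline and at 14.17, 12.16 and 13.42 FPKM with AngII (-1.01, limma adjusted p = 0.0527). Gnaq and Mapk14, like Rgs10, Rgs19 and Dusp10, were chosen for mention after their values were seen.

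Downstream, 1 of 16 tested ERK and serum response targets was called, higher for AngII vs saline, against 1.31% of all tested genes. Ier3, an early response gene that promotes survival, was at 19.71, 27.85 and 20.29 FPKM in saline, 62.61, 79.28 and 71.43 FPKM with AngII and 64.57, 52.68 and 49.69 FPKM with AngII+PGE1. It rose with AngII (log2 difference 1.62, SE 0.18, limma adjusted p = 0.0178), in the opposite direction to Rgs2 and Dusp1, and its AngII+PGE1 libraries stayed above every saline library (1.27, limma adjusted p = 0.09998). The Ier3 call for AngII vs saline was lost without saline 1, saline 3, AngII 2 or AngII 3, with differences between 1.53 and 1.77 over all 9 libraries left out in turn. Egr1, a classic ERK target, was at 23.06, 11.95 and 10.72 FPKM in saline, 9.21, 10.72 and 4.03 FPKM with AngII and 11.89, 21.23 and 21.04 FPKM with AngII+PGE1 (1.13 for AngII+PGE1 vs AngII, limma adjusted p = 0.0877). Fos was at 14.95, 2.02 and 8.35 FPKM in saline and at 1.1, 2.28 and 0.73 FPKM with AngII (-1.75, SE 0.49, limma adjusted p = 0.0686). As for Dusp5, saline 2 was the lowest saline library of Fos, and here it lay within the AngII range.

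Of 15 tested cAMP and CREB targets 1 was called lower for AngII vs saline, against 1.8% of all tested genes, and none higher, against 1.31%. Pde4d, a cAMP phosphodiesterase, fell from 5.93, 5.79 and 7.16 FPKM in saline to 3.57, 3.39 and 4.23 FPKM with AngII (log2 difference -0.62, SE 0.14, limma adjusted p = 0.0494). It was at 6.38, 6.05 and 5.91 FPKM with AngII+PGE1 (0.59 against AngII, limma adjusted p = 0.0596). Leaving out 1 library, Pde4d passed for AngII vs saline only without saline 2 or AngII+PGE1 1. Like Rgs2 and Dusp1, Pde4d kept saline 2 apart from the AngII libraries. The median of the list for AngII vs saline was -0.37, with 9 of 15 negative, against 49.9% of all tested genes.

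Glucocorticoid response genes were listed because Dusp1 and Rgs2 are also known targets of that hormone, and they moved in both directions. Of 14 tested, Errfi1 and Pdk4, a mitochondrial kinase, fell and Zbtb16, a transcription factor, rose with AngII. Among all tested genes 1.8% were called lower and 1.31% higher. Zbtb16 was at 7.92, 6.37 and 5.16 FPKM in saline and at 14.41, 14.35 and 12.38 FPKM with AngII (log2 difference 0.99, SE 0.16, limma adjusted p = 0.0392). Pdk4 was at 174.38, 68.23 and 179.57 FPKM in saline and at 26.89, 28.58 and 29.86 FPKM with AngII (-2.14, SE 0.47, limma adjusted p = 0.0453). Leaving out 1 library, Zbtb16 and Pdk4 passed only without saline 2 or AngII+PGE1 1. The median of the list for AngII vs saline was -0.23.

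**Figure D4:**
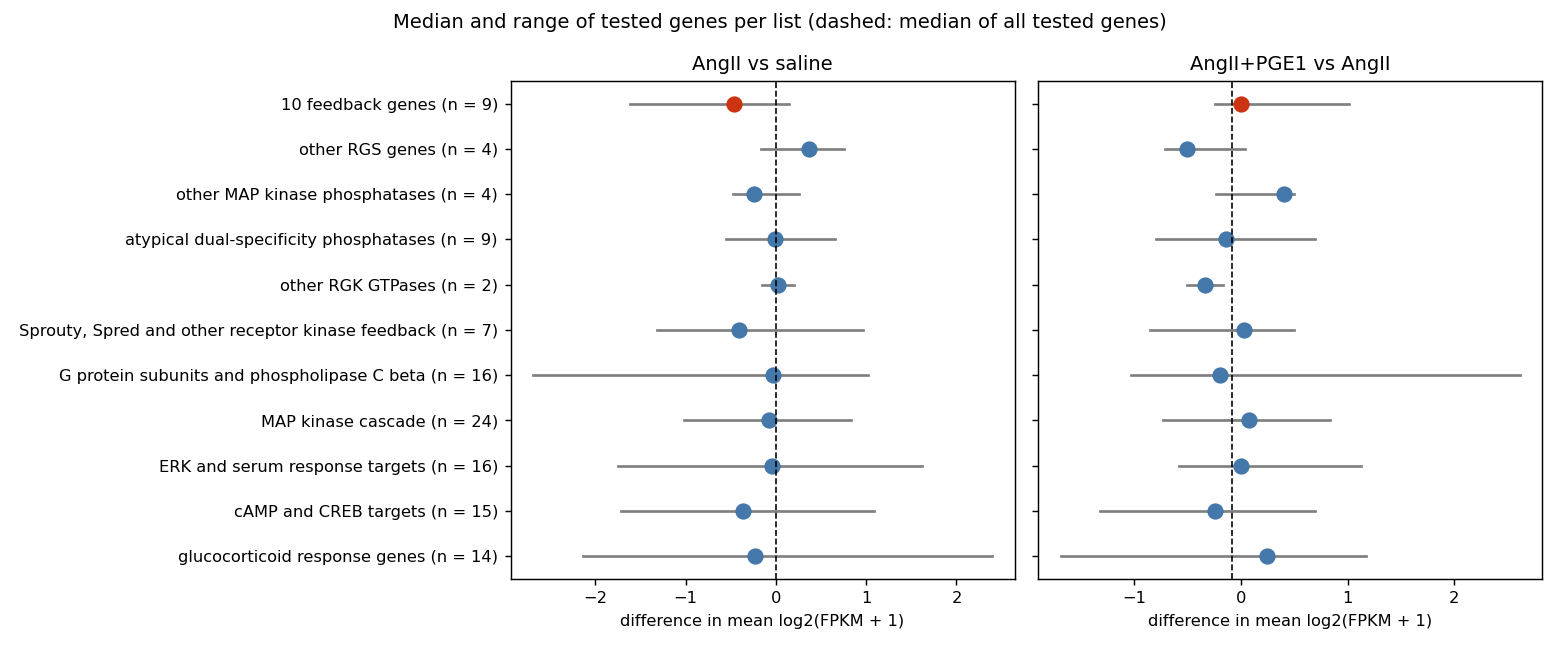
Median (point) and range (line) of the log2(FPKM + 1) differences of the tested genes of each list for AngII vs saline and AngII+PGE1 vs AngII, with the number of genes in brackets and the median of all tested genes as a dashed line. The feedback genes have a median of -0.47 for AngII vs saline, while the median of the other RGS genes is 0.36.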

How the data were processed

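Per the labels' protocols, heart mRNA was selected with oligo(dT) beads, fragmented and copied from random primers, and sequenced on a BGISEQ machine as single reads of 50 bases. The authors deposited 1 table with an expression column per library. Its values are taken as FPKM made by the authors. No header names the unit, which was inferred from the values: column sums differed by a ratio of up to 1.26, and sums weighted by transcript length by 1.095. Columns of log2 ratios between groups stand beside them in the authors' deposited table, and how they were made is not stated. The submitters' processing notes name mm9, RSEM 1.2.12, Bowtie2 2.2.5 and HISAT2 2.0.4 without their roles. Steps between low values put the depth at roughly 11.6 to 14.95 (1e6 reads on genes) a library, an approximation used in no test that limits the precision of low genes.

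Columns were assigned to groups by name. Values were analysed as log2(FPKM + 1), so differences on that scale understate changes of low genes. All 9 libraries entered 1 limma fit (version 3.58.1, R 4.3.3) of group means with a variance trend, on 6 residual degrees of freedom. Adjustment was by Benjamini-Hochberg over 11902 genes. The fit was tested on simulated data in which each gene was drawn independently. No library stood apart in them, so that test does not cover the pattern of saline 2 and AngII+PGE1 1. Alternatives were the compared groups alone, each library left out, saline 2 and AngII+PGE1 1 left out together, other filters (none, or 5 FPKM), another pseudocount (0.1), median-ratio scaling, quantile normalization, robust limma and, added after seeing the data, the number in the column name as a block.

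The members, lists, motifs and tests were chosen with earlier results of these data known. From the other lists the text names genes past the threshold in any comparison, up to 6 a list, and Rrad, Spry4, Egr1 and Fos. The genes named as most like Rgs2 and Dusp1 are the 5 with the highest Pearson correlation. Further genes were named after their values were seen.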

Additional observations from a re-analysis of the deposited data

How the results depend on the processing

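The 2 calls for AngII vs saline became 1 with only the 2 compared groups in the model (265 genes called in all), 0 without a filter (88 in all) and 5 without saline 2 and AngII+PGE1 1 (5768 in all), and leaving out 1 library at a time gave 0 to 5 (0 to 4512 in all). The 0 calls for AngII+PGE1 vs AngII became 1 without saline 2 and AngII+PGE1 1 (5279 in all), and 0 to 1 leaving out 1 library. AngII+PGE1 vs saline had 0 in all 18 alternatives. The differences of Rgs2 ranged from -1.81 to -1.40 and those of Dusp1 from -1.69 to -1.10 for AngII vs saline over the alternatives, and both kept the call in 9 and 8 of 18. The cause was not tested. No difference that changed sign was called in its comparison in any alternative. Leaving out 1 library, the ranges were -0.11 to 0.18 for Rgs5 (AngII vs saline), -0.30 to 0.19, -0.44 to 0.0075 and -0.33 to 0.22 for Rgs4, Rgs5 and Dusp6 (AngII+PGE1 vs AngII), and -0.13 to 0.12, -0.44 to 0.00086 and -0.28 to 0.036 for Rgs3, Rgs5 and Rgs6 (AngII+PGE1 vs saline). Without saline 2 and AngII+PGE1 1 the reversed values were 0.18 (Rgs5), 0.052 (Dusp6) and 0.088 (Rgs3) in the same comparisons. With a pseudocount of 0.1 Dusp6 was 0.0097 for AngII+PGE1 vs AngII. With quantile normalization Rgs4 and Dusp6 were 0.084 and 0.063 for AngII+PGE1 vs AngII, and Rgs3 and Rgs6 were 0.043 and 0.022 for AngII+PGE1 vs saline. With median-ratio scaling Rgs4, Dusp6 and Rgs3 were 0.079, 0.13 and 0.084, and the median of all genes for AngII+PGE1 vs AngII moved from -0.08 to 0.04. The columns do not carry the replicate numbers of the labels. With the number in the column name as a replicate block, an alternative added after seeing the data, AngII vs saline had 0 calls (0 in all), and Rgs4 and Dusp6 were 0.0027 and 0.046 for AngII+PGE1 vs AngII and Rgs3 was 0.076 for AngII+PGE1 vs saline. Groups share only 2 such numbers each. Deviations from the group means correlated at 0.71 and 0.55 for the same-numbered saline and AngII+PGE1 pairs, and between -0.32 and 0.08 for those with AngII. The unlike-numbered saline 1 and AngII+PGE1 3 were at 0.63. Deviations within a group depend on each other, so these values cannot settle whether the numbers pair the libraries. The main fit used no pairing. Dusp4 was under the filter, and 3 members more were under the minimum of 5 FPKM.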

Other observations

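Gna12, which encodes a G-protein alpha subunit, had the largest log2 difference for AngII vs saline among the 16 tested genes of its list, and was chosen for mention after its values were seen. It was at 69.82, 7.31 and 69.69 FPKM in saline, 3.31, 7.54 and 3.24 FPKM with AngII and 10.51, 48.79 and 60.96 FPKM with AngII+PGE1. Saline 2 lay within the AngII range and AngII+PGE1 1 just above it (log2 difference for AngII vs saline -2.69, limma adjusted p = 0.0755). Nr4a1, a cAMP-induced nuclear receptor gene, was at 65.08, 7 and 50.78 FPKM in saline, 6.78, 13.47 and 5.93 FPKM with AngII and 8.56, 6.61 and 5.45 FPKM with AngII+PGE1, so that it was low in all libraries but saline 1 and 3 (-1.71 for AngII vs saline and -1.96 for AngII+PGE1 vs saline, limma adjusted p = 0.105 and 0.9999). Sik1, a cAMP-induced kinase gene, was likewise high in saline 1 and 3, at 32.57 and 35.54 FPKM, and lay between 6.56 and 10.35 FPKM in the other libraries.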
